A study of Rattus norvegicus with 8 samples.

Results

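The core circadian clock genes were followed in the rat hypothalamus, in 4 females in estrus and 4 males. The genes were Clock, Arntl, Per1, Per2, Per3, Cry1, Cry2, Nr1d1, Dbp and Tef. Members were the non-control spots that the array files name with 1 of these symbols, which gave 10 of 19204 named genes, 16 of 30367 probes and 34 of 42877 spots. All animals were Sprague Dawley rats aged 3 to 4 months, housed individually under 14 h of light and 10 h of dark with lights on at hour 6. Total RNA of each hypothalamus was labelled with Cy3 or Cy5, and each of the 4 arrays of a single slide carried 1 female and 1 male, numbered here by their array. Females were in Cy3 on arrays 1 and 3 and in Cy5 on arrays 2 and 4. The study was described as a comparison of the sexes, with a main interest in cytoskeletal genes. The hour of tissue collection is not given in the sources used here, and it cannot be told apart from any other difference between animals. All females were in estrus, so sex and the stage of the cycle cannot be told apart either.

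The mammalian clock is a loop of transcription and repression. CLOCK and BMAL1, the product of Arntl, bind E-boxes and drive the Period and Cryptochrome genes, whose proteins return to the nucleus and repress CLOCK and BMAL1. Nr1d1 encodes REV-ERB alpha, a nuclear receptor that represses Arntl, and DBP and TEF are output factors of the PAR bZIP family that bind D-boxes. The suprachiasmatic nucleus of the hypothalamus is the master pacemaker, but it makes up a small part of a whole hypothalamus, and most brain cells run a clock of their own. In a bulk sample such as these, fewer cells of a type and less RNA per cell cannot be told apart.

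Each reading comes from a probe of 60 bases. The probes whose readings matter most below are shown first, 5′ to 3′, from the array files, with positions on the rn4 build, and no part of them is set in capitals. The Nr1d1 probe lies at chr10:87543165-87543519 on the minus strand, where its 60 bases span 355 bases of genome. The Dbp probes A_64_P049828 and A_64_P049827 lie at chr1:96178064-96178123 and chr1:96178148-96178207 on the plus strand and start at bases 1201 and 1285 of the transcript. The third Dbp probe, A_64_P017188, starts at base 1560 of the same transcript and is the brightest of the 3. The Per3 probe A_64_P127337 lies at chr5:168152839-168152898 on the minus strand and starts at base 3298 of its transcript, directly before the brightest Per3 probe, A_64_P119407, which starts at base 3358.
Nr1d1 A_44_P175041: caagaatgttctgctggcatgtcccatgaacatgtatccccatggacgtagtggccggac
Dbp A_64_P049828: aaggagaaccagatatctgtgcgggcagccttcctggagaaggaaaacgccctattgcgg
Dbp A_64_P049827: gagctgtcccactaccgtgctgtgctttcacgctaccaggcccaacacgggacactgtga
Per3 A_64_P127337: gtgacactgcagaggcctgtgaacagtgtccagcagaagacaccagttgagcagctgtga

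Motifs of the loop were searched on both strands of RefSeq promoter windows of 300 bases (250 before to 50 after the start site, GRCr8), which covered 9 of the 10 members in 11 windows. Cry1 was the member without a window. The E-box CACGTG was found for 2 members, Nr1d1 and Tef, and in 6.42% of all 33469 promoters. Another window of Nr1d1 held 0 E-boxes. A D-box, TTATGTAA or TTACGTAA, was found for 1 member, Per2, and in 1.01% of all promoters. The ROR site AGGTCA, the core of the element that REV-ERB and ROR receptors bind, was found for 1 member, Arntl, and in 16.18% of all promoters. None of these matches overlapped another, and a match describes letters only. The stretches that hold them, 60 bases each and wholly before the start site, are shown with the motif in capitals. They lie at chr10:84229613-84229672 on the minus strand for Nr1d1, chr7:115206602-115206661 on the plus strand for Tef, chr9:99497152-99497211 on the minus strand for Per2 and chr1:176766268-176766327 on the plus strand for Arntl, which RefSeq lists as Bmal1.
Nr1d1: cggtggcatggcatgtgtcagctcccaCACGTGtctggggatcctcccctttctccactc
Tef: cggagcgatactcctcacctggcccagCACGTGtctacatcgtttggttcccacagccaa
Per2: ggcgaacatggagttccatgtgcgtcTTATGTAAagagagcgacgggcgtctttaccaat
Arntl: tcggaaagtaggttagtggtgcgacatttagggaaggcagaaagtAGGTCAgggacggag

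Male replicate 2 stood apart from the other 7 animals in its hypothalamic and in its cortical, hippocampal and striatal markers. The median of 16 hypothalamic markers in it was -1.95 log2 units from the mean of all animals, against -0.04 to 0.74 in the others, and the median of 10 cortical, hippocampal and striatal markers was 1.52, against -0.42 to 0.34. The 12 measured markers of the suprachiasmatic nucleus had a median of -0.57 in it, against -0.04 to 0.21 in the others. Female 1 was apart as well in 7 meningeal markers, with a median of 1.16. That median was -1.24 in male 2 and -0.23 to 0.34 in the other animals. The dye effect taken out of these levels was fitted with male 2 included, so the ranges of the others are not spreads between animals alone. For hypothalamic markers the others in Cy3 (female 1, female 3 and male 4) were at 0.74, 0.60 and 0.63. Those in Cy5 (female 2, female 4, male 1 and male 3) were at -0.04, -0.001, -0.02 and 0.03. Avp, the vasopressin gene of the suprachiasmatic nucleus and of magnocellular neurons, read 4.62 log2 units higher in the female than in the male of array 2, and between -0.04 and 0.53 on the other arrays. Net signals had medians from 492.5 to 519 (Cy3) and from 146 to 269.5 (Cy5), 77.6% to 87.0% of spots were well above background, and no spot was saturated. Several values below are therefore also given without array 2.

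No core clock gene differed between the sexes at an adjusted p under 0.05, and neither did any of the 14603 genes tested (0% of all genes, limma with Benjamini-Hochberg adjustment). At an unadjusted p under 0.05, 1 of the 10 clock genes was higher in females (Cry1), where 5.01% of all genes were, and 2 were lower (Nr1d1 and Tef), where 3.51% of all genes were. Of the members 5 stood above 0 and 5 below, with a median log2 ratio of female over male of 0.0058, against 0.0215 over all genes. None of the 3 stayed under that unadjusted threshold without array 1 or without array 3. In those fits fewer of all genes were under it as well than with all arrays. All 16 probes passed the filter on dim spots. Data of this design were simulated with independent noise and 50 probes changed at each of 0.58, 1, 2 and -2 log2 units. A change of 0.58 was called at the adjusted threshold for 18 of 50 probes and a change of 1 for 46 of 50. The large changes ease that threshold, and shifts shared by many genes were not simulated. These shares therefore do not give the power of the real data, where the lowest adjusted p in limma was 0.5547. The members' differences were all smaller than 0.58 log2 units.

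Nr1d1 was the member whose sexes were furthest apart relative to its error. With the dye effect of the probe removed, its log2 level was 10.21, 10.04, 10.05 and 10.05 in females 1 to 4 and 10.49, 10.38, 10.38 and 10.31 in males 1 to 4. Every male was above every female, which held for 1 of the 10 members and for 6.21% of all 14488 genes with complete levels. The fitted log2 ratio was -0.30 ± 0.06 (SE, 4 arrays), a fold of 0.81, with a 95% interval of -0.47 to -0.13, an unadjusted p of 0.00714 and an adjusted p of 0.555 in limma. The ratio was below 0 on 4 of 4 arrays, where 10.61% of all genes had 1 sign on 4 arrays, but by unequal amounts: -0.52 and -0.58 with the female in Cy3, against -0.09 and -0.02 with the female in Cy5. The dye effect of the probe was 0.25 ± 0.06, with an adjusted p of 0.0788. Without array 2 the ratio was -0.29, a value for which array 4 alone, at -0.02, had the female in Cy5.

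Cry1, a repressor of CLOCK and BMAL1, went the other way. Its dye-adjusted log2 levels were 10.55, 10.58, 10.96 and 10.999 in females 1 to 4, and 10.34, 10.30, 10.61 and 10.72 in males 1 to 4. The sexes overlapped, but on each array the female was above the male, by 0.35, 0.13, 0.50 and 0.13. The fitted log2 ratio was 0.28 ± 0.07 (SE, 4 arrays), a fold of 1.21, with a 95% interval of 0.10 to 0.45 and an adjusted p of 0.555 in limma. Both animals of arrays 1 and 2 were lower than both animals of arrays 3 and 4 within their sex, so the level of Cry1 also moved with the array. Its paralogue Cry2 had levels of 8.17 to 8.31 in females and 8.15 to 8.37 in males, with a log2 ratio of -0.02 ± 0.08 and a 95% interval of -0.24 to 0.21.

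Tef, the second PAR bZIP output factor, was lower in females at the unadjusted threshold. Its dye-adjusted log2 levels were 12.97, 13.28, 12.99 and 13.08 in females 1 to 4 and 13.28, 13.82, 13.33 and 13.19 in males 1 to 4. Male 2 was the highest of the 8 animals, males 1 and 3 lay at or above the highest female, and male 4 lay within the female range. The log2 ratio was -0.32 ± 0.10 (SE, 4 arrays; 95% interval -0.59 to -0.06; adjusted p 0.555 in limma), and -0.22 without array 2. The sign of the measured ratio followed the dye, with 0.27 and 0.23 where the female was in Cy3 and -1.12 and -0.68 where she was in Cy5. Tef was the only member whose brightest probe passed the test for a dye effect (-0.57 ± 0.10, adjusted p 0.0372), where 13.3% of all genes did.

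**Figure D1:**
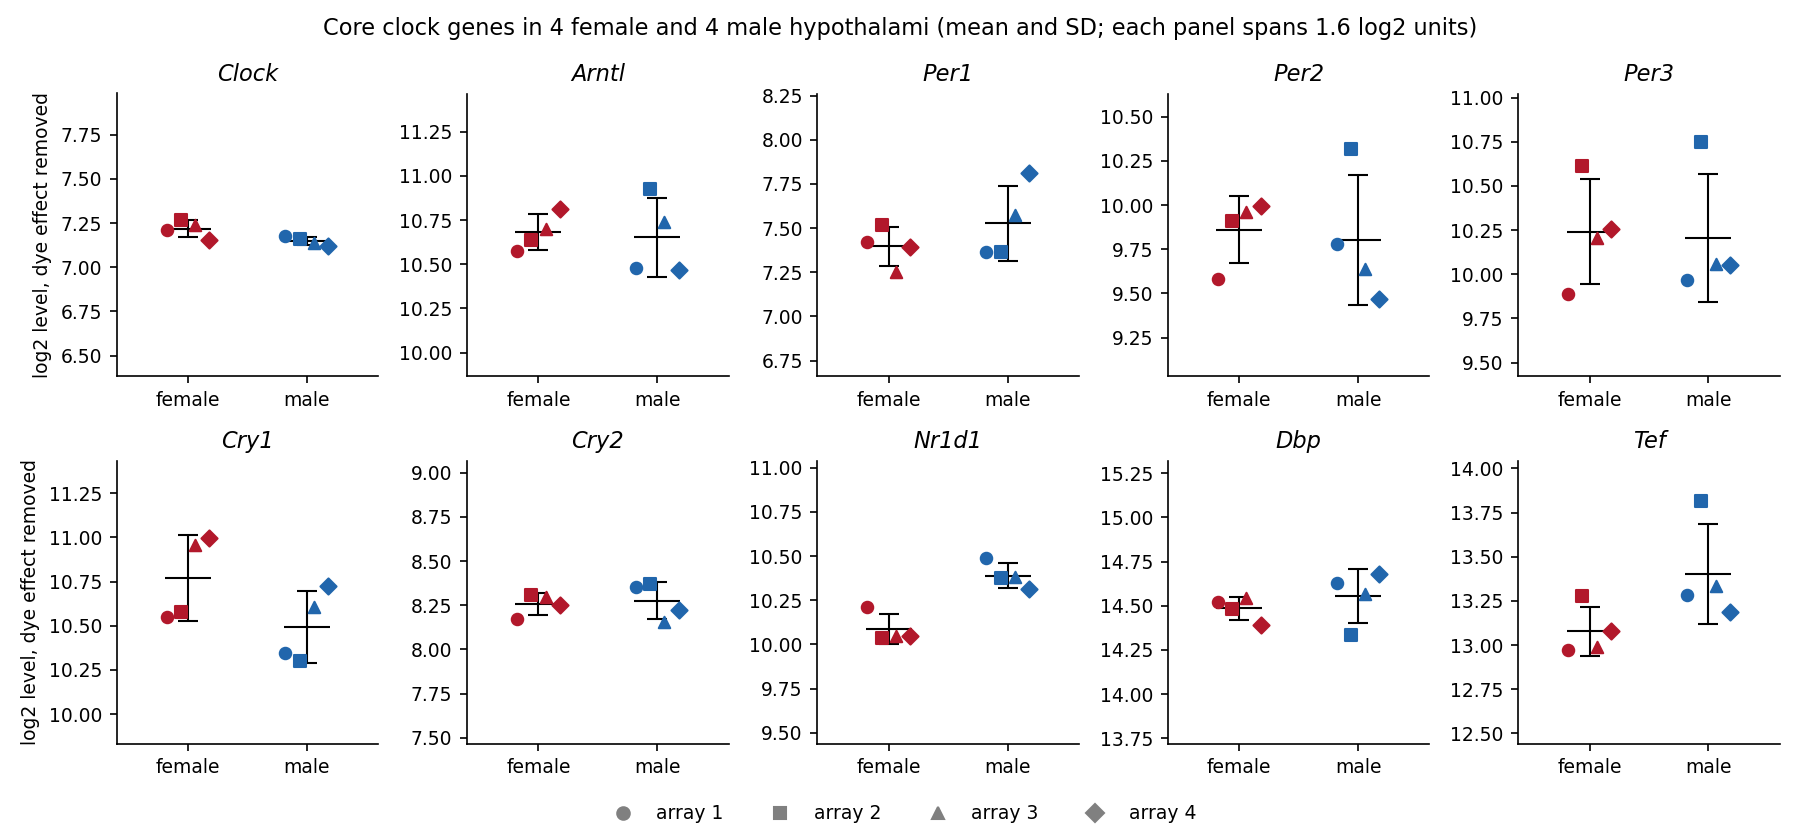
Log2 level of each core clock gene (brightest probe, dye effect removed) in 4 females (red) and 4 males (blue), with the mean and SD of each sex as black bars and the symbol giving the array. Nr1d1 is the only panel without overlap, with females at 10.04 to 10.21 and males at 10.31 to 10.49, and male 2 (blue square) is the highest point for Arntl, Per2, Per3 and Tef.

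No activator or Period gene passed the test, and every 95% interval of their ratios held 0. Clock, the histone acetyltransferase partner of BMAL1, had a log2 ratio of 0.07 ± 0.06 (95% interval -0.10 to 0.24), and its second probe gave -0.01 ± 0.06. Both Clock probes were dim, and the ratio of the brighter rose to 0.25 in the scanner's own log ratio and to 0.41 in the authors' deposited value table. Arntl stood at 0.03 ± 0.13 (95% interval -0.31 to 0.37) at its brightest probe and at -0.02 ± 0.10 at the other. Its ratio was -0.52 on array 2 and 0.12 to 0.33 on the other 3 arrays.

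Per1, the Period gene that light and glucocorticoids induce fastest, had a log2 ratio of -0.13 ± 0.13, positive on arrays 1 and 2 (0.10 and 0.12) and negative on arrays 3 and 4 (-0.28 and -0.46). Per2, a Period gene without which mice lose stable rhythms, had the widest interval of the members, -0.47 to 0.58, around a ratio of 0.06 ± 0.19. Per2 levels were 9.58, 9.91, 9.96 and 9.99 in females 1 to 4 and 9.78, 10.32, 9.64 and 9.47 in males 1 to 4, so males held both the highest and the lowest animal. Without array 2 the Per2 ratio was 0.29, and without array 4 it was -0.18. Per3, the Period gene tied to sleep timing, had ratios of 0.03 ± 0.09, 0.01 ± 0.07 and 0.03 ± 0.07 at its 3 probes.

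Dbp, whose transcript is among the most rhythmic known in many tissues, had levels of 14.52, 14.48, 14.54 and 14.39 in females 1 to 4 and 14.63, 14.33, 14.57 and 14.68 in males 1 to 4. The male values lay on both sides of the female values, and the log2 ratio was -0.07 ± 0.10 (95% interval -0.33 to 0.20). The other Dbp probes gave 0.01 ± 0.10 and 0.09 ± 0.11. Their sex ratios lay close together, while their dye effects did not: -0.87 ± 0.11 (adjusted p 0.0244) at A_64_P049828, -0.40 ± 0.10 (adjusted p 0.0818) at A_64_P049827 and 0.21 ± 0.10 (adjusted p 0.219) at A_64_P017188. These probes read the same transcript close to each other, as their start positions above show.

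**Figure D2:**
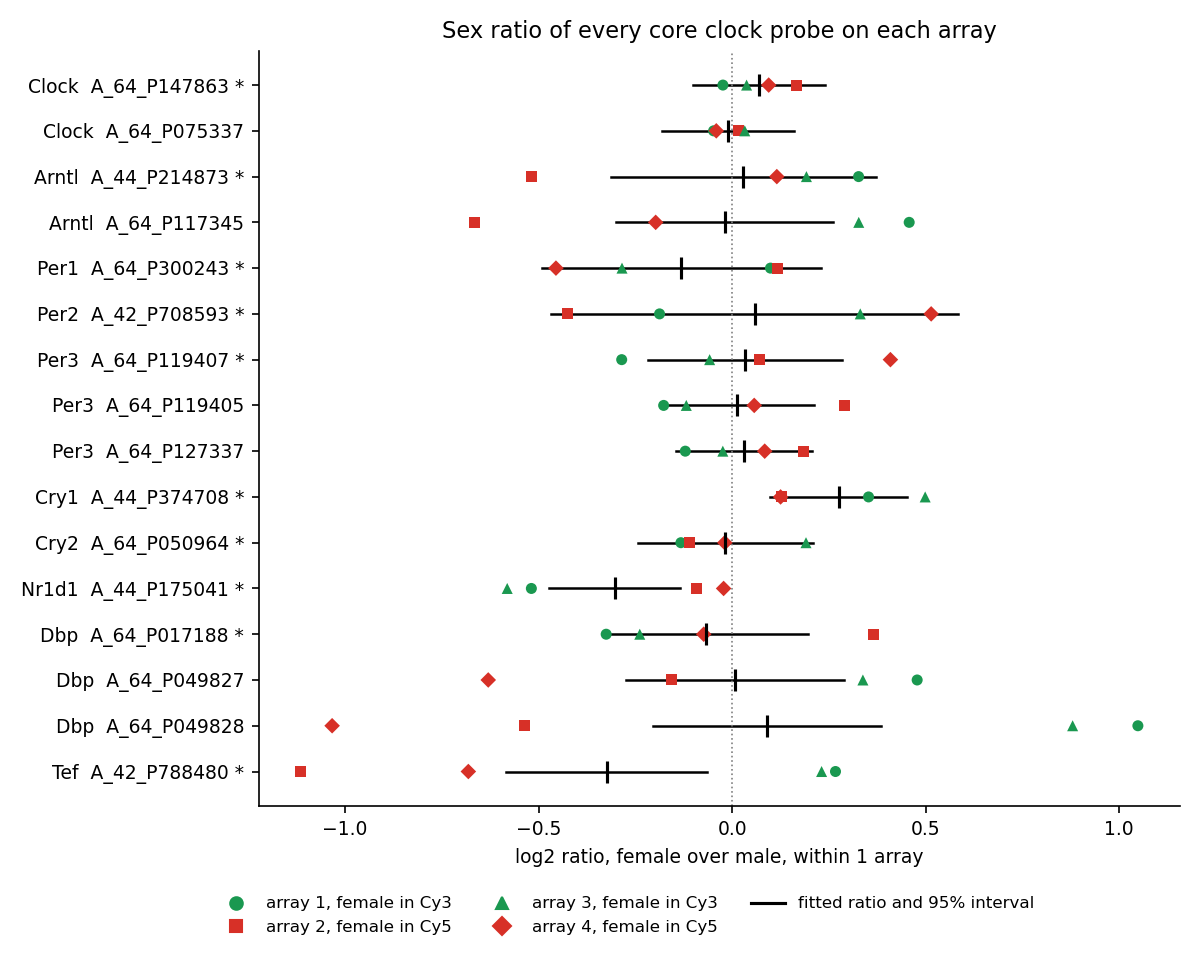
Log2 ratio of female over male for all 16 core clock probes (asterisk: brightest probe of the gene), with 1 symbol per array coloured by the dye of the female, and the fitted ratio with its 95% interval in black. The Dbp probes A_64_P049828 and A_64_P049827 and Tef split by dye, with A_64_P049828 at 1.05 and 0.88 in green and -0.54 and -1.03 in red, while Cry1 lies above 0 and Nr1d1 below 0 on all 4 arrays.

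The place of a probe on the array moved with these dye effects. The 3 Dbp probes were printed in array rows 1, 69 and 357, in the order in which they are listed above with their dye effects. Over all spots, the median log2 ratio of Cy5 over Cy3 was -0.68, -0.26, -0.53 and -0.46 in the first of 10 bands of rows on arrays 1 to 4, and 0.13, 0.08, 0.15 and 0.11 in the last. The probes of Tef and Per2 were printed on 10 spots each and show the same within 1 sequence. On array 1 the Tef spots in rows 20, 21 and 22 read -1.37, -1.02 and -1.14, and those in rows 390, 398, 462 and 529 read 0.34, 0.34, 0.35 and 0.26.

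When the loess curve was fitted within the 10 bands of rows, an alternative chosen after this trend was seen, the SD over Tef spots fell from 0.67, 0.55, 0.46 and 0.42 on arrays 1 to 4 to 0.17, 0.10, 0.06 and 0.07. That of Per2, whose used spots lay in rows 247 to 447, went from 0.16, 0.09, 0.17 and 0.15 to 0.08, 0.02, 0.06 and 0.08. The number of probes with a dye effect at an adjusted p under 0.05 went from 2797 of 21995 to 0, and the dye effects of the 3 Dbp probes became -0.03, 0.10 and 0.11. The Tef dye effect became -0.34 ± 0.10 (adjusted p 0.304).

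**Figure D3:**
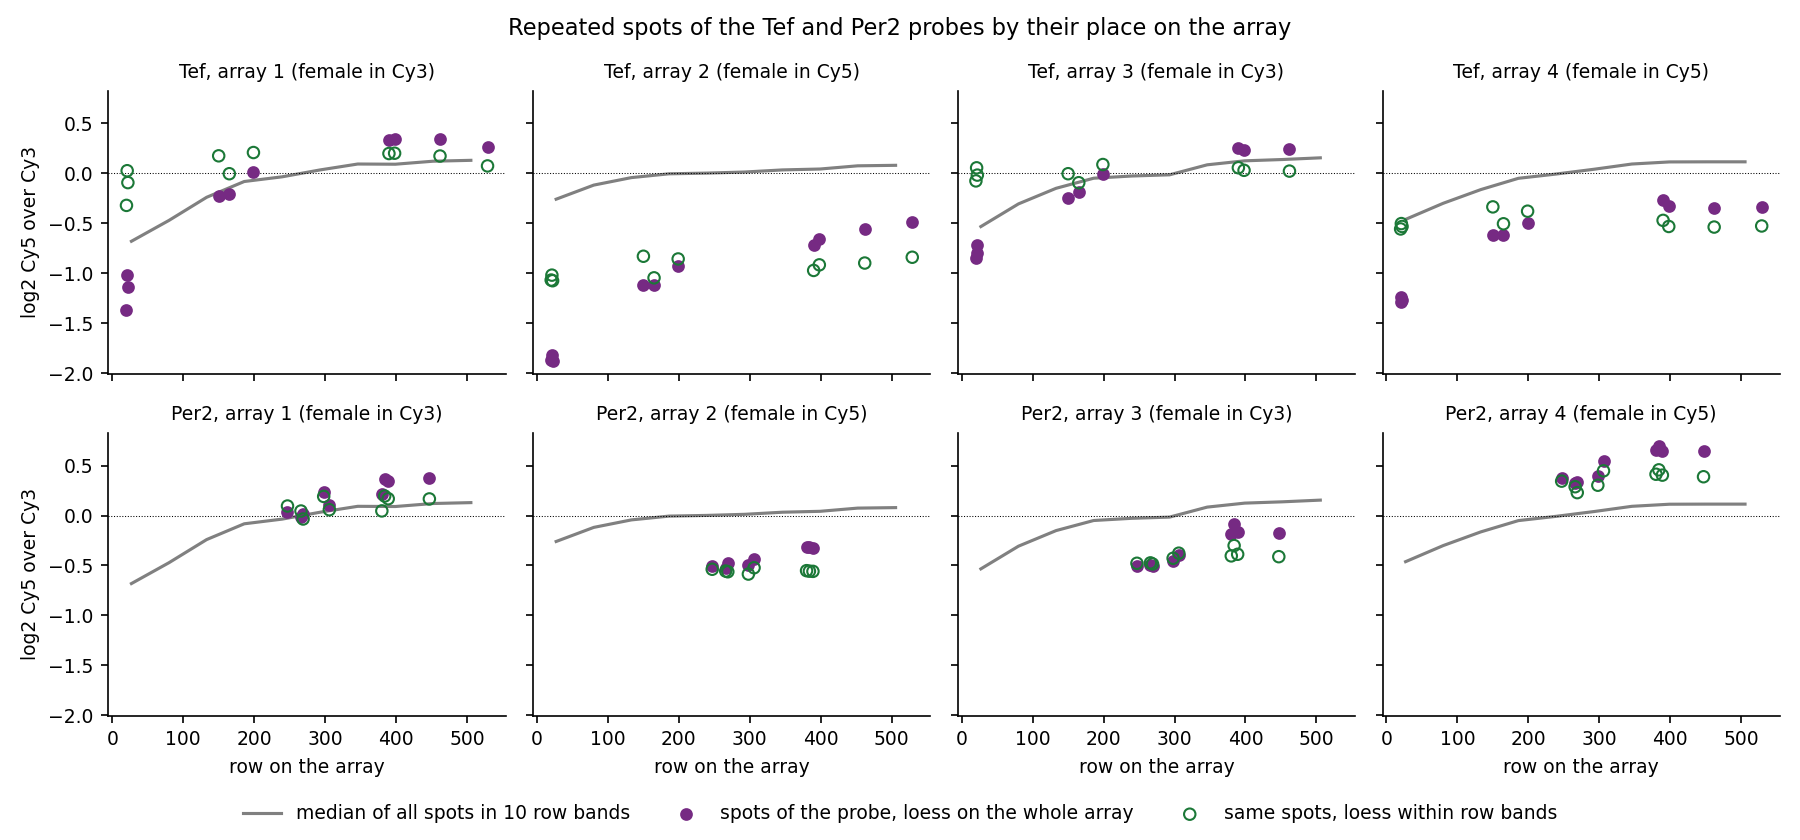
Log2 ratio of Cy5 over Cy3 at the repeated spots of the Tef and Per2 probes, by row on each array, after loess on the whole array (filled) and within 10 bands of rows (open); the grey line is the median of all spots per band. On array 2 the filled Tef spots climb from -1.88 to -0.49 along the rows, and the open ones stay between -1.08 and -0.83.

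The 3 members under the unadjusted threshold kept their sign under the banded curve. Nr1d1 was at -0.32 ± 0.06 (unadjusted p 0.00455 in limma), and its ratios on arrays 1 to 4 became -0.39, -0.24, -0.45 and -0.20, closer to each other than before. Tef was at -0.38 ± 0.10 (unadjusted p 0.0177 in limma), with -0.06, -0.95, -0.01 and -0.49, so all 4 arrays were below 0 but arrays 1 and 3 barely so. Cry1 was at 0.24 ± 0.06 (unadjusted p 0.0194 in limma), with 0.28, 0.10, 0.46 and 0.11. All had an adjusted p of 0.578, and no gene passed the adjusted threshold.

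**Figure D4:**
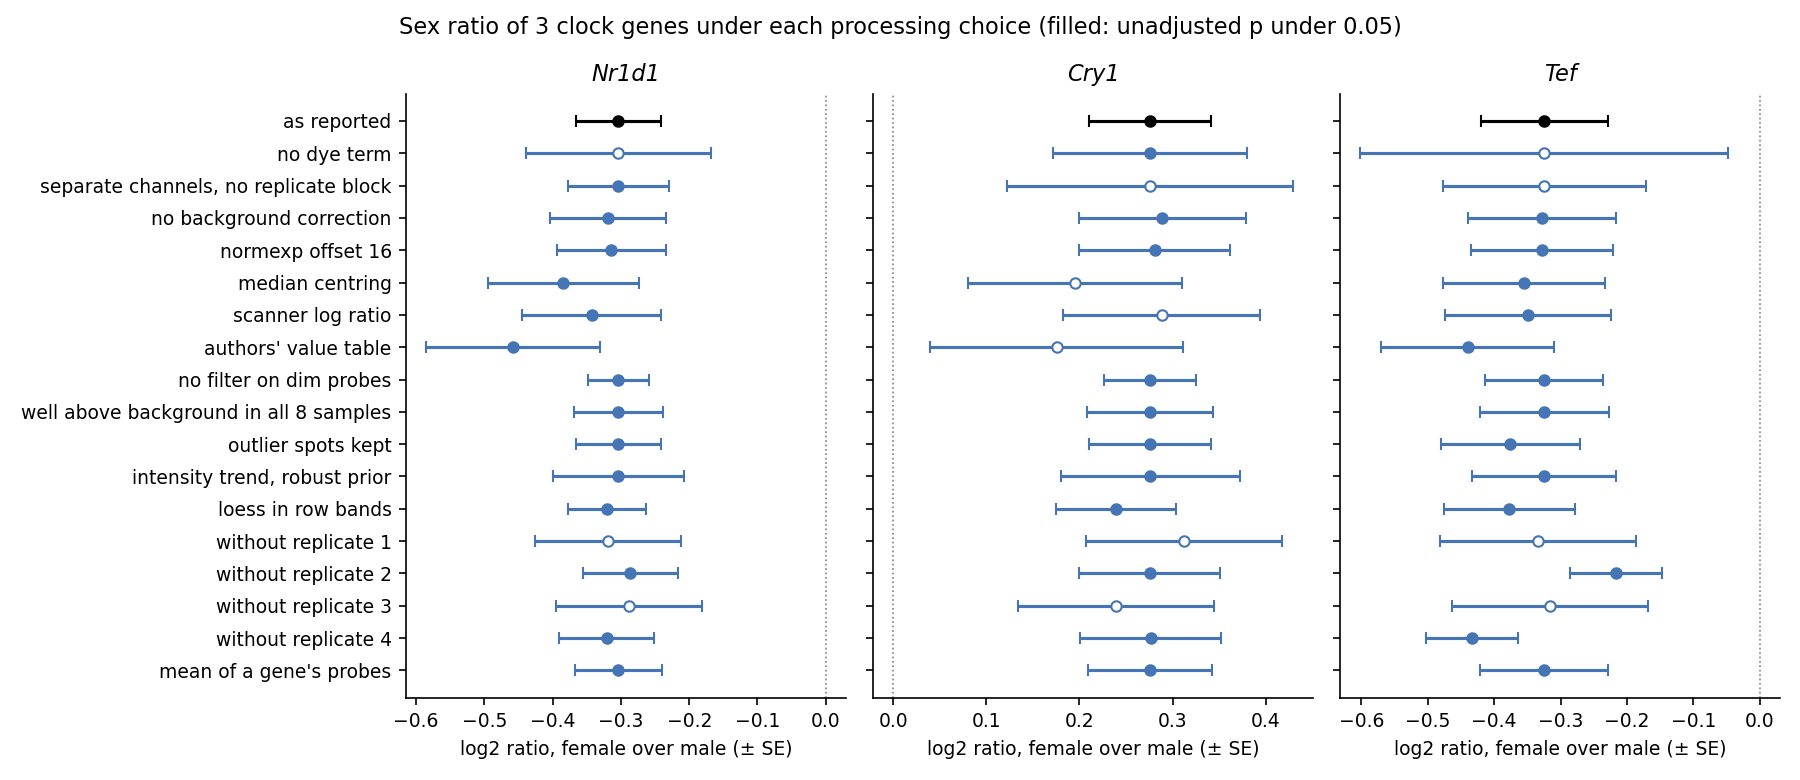
Log2 ratio of female over male (± SE) for Nr1d1, Cry1 and Tef as reported (black) and under 17 other processing choices (blue), filled where the unadjusted p was under 0.05. The ratio kept its sign throughout, from -0.46 to -0.29 for Nr1d1, 0.18 to 0.31 for Cry1 and -0.44 to -0.22 for Tef. Several choices change only the error or the genes tested, so the ratio could not move under them.

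The spread between animals, after sex and dye means were removed, differed widely among members. Clock had an SD of 0.04 log2 units, at percentile 2 of 14488 genes, and Nr1d1 (0.09, percentile 17.4) and Cry2 (0.09, percentile 20.7) were also below the median SD of all genes of 0.16. Dbp had 0.13 (percentile 36.6), Per1 0.19 (percentile 58.6) and Arntl 0.19 (percentile 59.7). The widest were Tef at 0.24, Cry1 at 0.24, Per2 at 0.32 (percentile 83.9) and Per3 at 0.36 (percentile 87.5). The Clock probe was dim, and what the added offset did to its spread was not tested. Its SD was 0.08 (percentile 5) with no background correction, a setting without the offset. With quantile scaling of all channels, which keeps the offset, it was 0.07 (percentile 8.7).

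Male 2 was the animal furthest out for several members. After sex and dye means were removed it was at 0.54 for Per3, 0.52 for Per2, 0.41 for Tef and 0.27 for Arntl, and at -0.22 for Dbp. Both Arntl probes had their highest level in male 2 (10.92 and 8.83), and all 3 Dbp probes had their lowest level in it (14.33, 13.80 and 12.12). Its hypothalamic and cortical marker levels, given above, moved with these genes, and their part in the result was not tested. Per3 did not read alike at its probes: the brightest gave 10.75 in male 2 against 9.97 to 10.06 in the other males, while A_64_P127337, which ends where the brightest begins, gave 7.39 in male 2 against 7.51 to 7.65.

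Over the 8 samples, 6 of 45 pairs of members correlated above 0.7 and 4 below -0.7, which is 22.2% of pairs, against 22.5% over all pairs of genes. The correlation was 0.93 between Per3 and Tef, 0.85 between Per2 and Tef, 0.82 between Per2 and Per3, and -0.90 between Arntl and Dbp. The members of a pair share arrays, dyes and male 2, so these values are descriptions. With array 2 left out, Per3 and Tef were at 0.25, Per2 and Tef at -0.05, Per2 and Per3 at 0.67, and Arntl and Dbp at -0.59, over 6 samples. Other pairs rose without it, Arntl and Tef from 0.74 to 0.89 and Per2 and Cry2 from 0.76 to 0.80. Some pairs moved much further, Per3 and Cry1 from -0.265 to 0.961 and Per1 and Dbp from 0.437 to -0.947. With sex and dye means taken out of 6 samples such values are unstable, and no share over all pairs of genes is given for them. Arntl and Dbp peak at opposite times of day in most tissues, as background; the labels do not order these animals by hour.

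**Figure D5:**
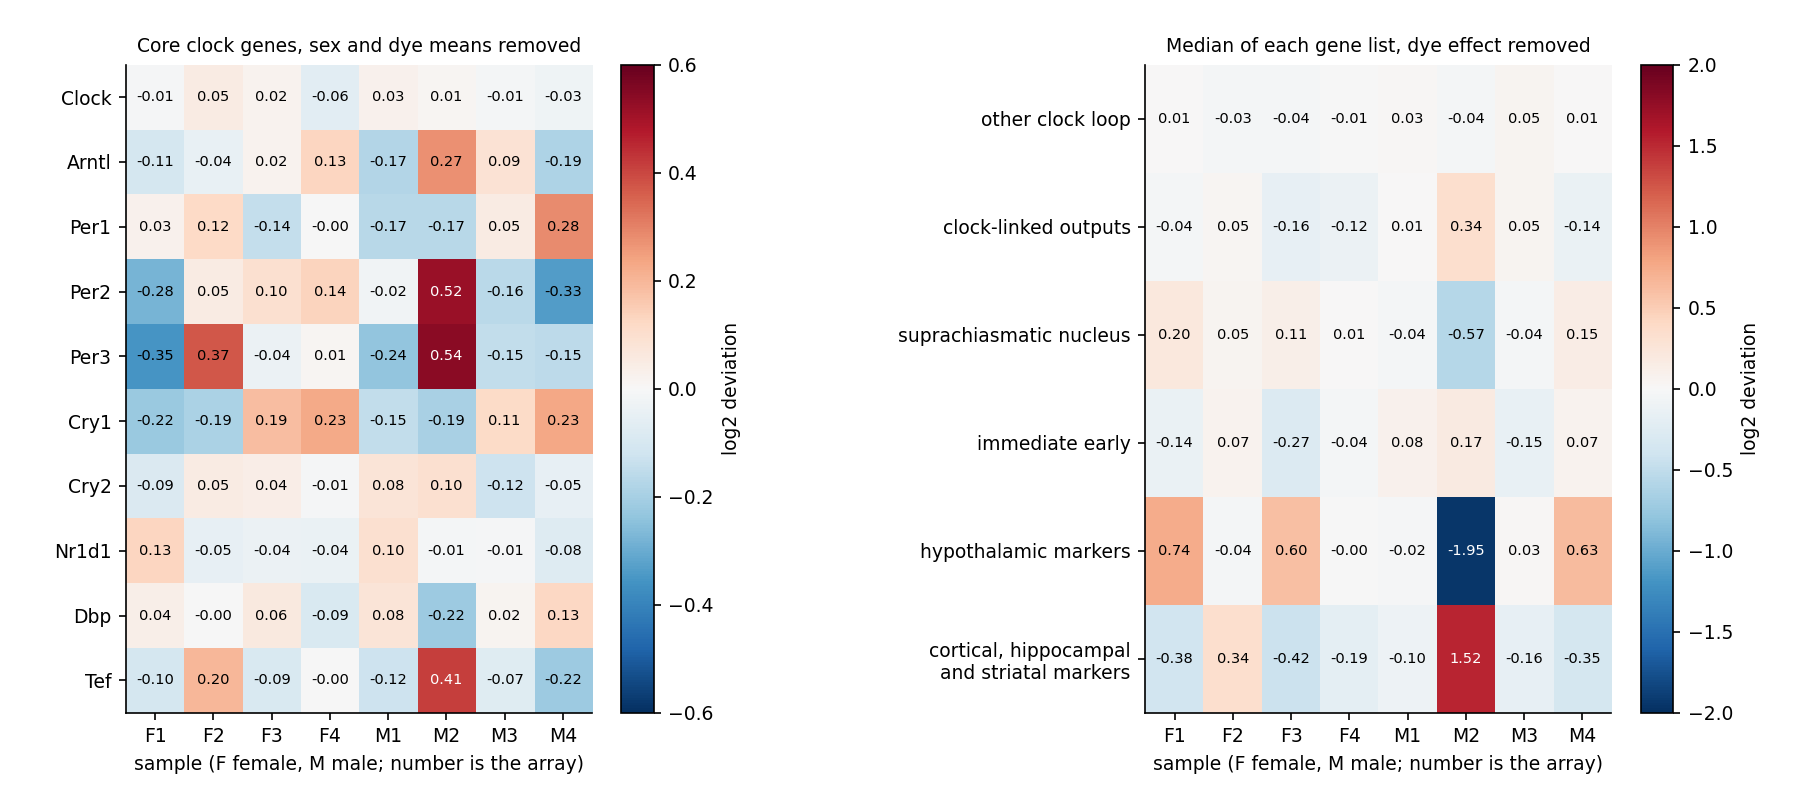
Left, log2 deviation of each core clock gene in each sample after sex and dye means were removed; right, the median log2 deviation from the mean of all samples for 6 gene lists, with the dye effect removed. In the column of male 2, Per2 and Per3 reach 0.52 and 0.54 and hypothalamic markers fall to -1.95, while the other clock loop stays at -0.04.

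The genes most like Dbp in these deviations were Kcp at 0.995, Cd99l2 at 0.994 and Spmip8 at 0.992, over 8 samples and 14487 genes, and 515 genes exceeded 0.9. Those most like Nr1d1 were Bfar at 0.986, Zp3r at 0.981 and Pogz at 0.979, with 93 genes above 0.9. By rank (Spearman), over the same 8 samples, the values were 1, 0.952 and 0.976 for those of Dbp. For those of Nr1d1 they were 0.952, 0.929 and 0.905. Nr1d1 deviated by 0.13 in female 1 and 0.10 in male 1, both of array 1, against -0.08 to -0.006 in the others. Dbp was furthest out in male 2, at -0.22, and male 4, at 0.13.

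No gene of the rest of the clock loop passed the test. Of 24 listed genes, among them kinases, ubiquitin ligases and nuclear receptors of the loop, 20 were tested, and 0 passed at an adjusted or an unadjusted p under 0.05 in limma, with a median log2 ratio of 0.0173. Nr1d2, the paralogue of Nr1d1, was below 0 on 4 of 4 arrays, at -0.05, -0.02, -0.19 and -0.23, with a fitted ratio of -0.12 ± 0.07. Ciart, a repressor of CLOCK and BMAL1, gave -0.16 ± 0.10, with ratios of -0.005, -0.008, -0.26 and -0.38 by array, so 2 of the 4 lay near 0. Npas2, which can stand in for CLOCK in the forebrain, gave -0.52 ± 0.21 with -1.35 on array 4. Without array 2 it gave -0.81, a value for which array 4 alone had the female in Cy5. Rorb, a ROR receptor expressed in the suprachiasmatic nucleus, gave 0.07 ± 0.08, and Nfil3, the repressor that competes for D-boxes, 0.19 ± 0.15.

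Among 10 clock-linked output genes, 1 passed at an unadjusted p under 0.05, lower in females, and 0 at an adjusted p in limma; the median was -0.15. It was Klf9, a glucocorticoid- and clock-responsive factor, at -0.44 ± 0.15, and like Tef its sign followed the dye: 0.39 and 0.29 with the female in Cy3, -1.62 and -0.81 with the female in Cy5. Without array 2 the median of the output genes was -0.0055 and Klf9 was at -0.23. Sgk1, a kinase induced by glucocorticoids, was at -0.65 ± 0.25 and Wee1, a cell cycle kinase, at -0.46 ± 0.19. Of 12 tested markers of the suprachiasmatic nucleus 0 passed at either threshold, with a median of 0.12, which was 0.04 without array 2. Avp was at 1.30 ± 0.80, and at 0.14 without array 2, and Vip, the peptide of the light-receiving core, was at 0.19 ± 0.10.

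Immediate early genes, which light and arousal induce in this nucleus and elsewhere, had 17 of 22 tested genes below 0 and a median of -0.22, where 56.21% of all genes were above 0. Without array 2 the median was -0.05, with 14 of 22 below 0. At an unadjusted p under 0.05, 3 were lower in females and 0 higher, against 3.51% and 5.01% of all genes, and 0 passed at an adjusted p in limma. Such counts are not given without array 2, because array 4 alone then had the female in Cy5. The 3 with all arrays were Ier2 at -0.86 ± 0.16, Klf2 at -0.43 ± 0.09 and Dusp1, a phosphatase of MAP kinases, at -0.67 ± 0.15. The size of the Dusp1 ratio followed the dye, with -0.13 and 0.09 where the female was in Cy3 and -0.94 and -1.72 where she was in Cy5. Ier2 and Klf2 were below 0 on 4 of 4 arrays. Without array 2 the ratios were -0.996 for Ier2, -0.49 for Klf2 and -0.87 for Dusp1. Array 4, then the only array with the female in Cy5, read -1.32, -0.36 and -1.72 for these genes.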

How the data were processed

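The members and gene lists were chosen with earlier results of these data known. The submitters' processing notes name Agilent Feature Extraction (10.7.3.1) as the scan software. Signals of spots and of their background are intensity values as scanned, per the file headers. Processed signals are intensity after background subtraction, detrending and dye normalization, and the scanner's ratio is a log10 value, Cy5 over Cy3, both per the file headers. The values that the authors deposited are log2 values and equal the log2 of median signal minus median background less a constant per column (median 0; within 0.01 for 100% of values).

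Mean signals were corrected with normexp (offset 50) and normalized by loess within arrays in limma 3.58.1 under R 4.3.3, with control spots at weight 0, and figures were drawn with matplotlib 3.10.9 in Python 3.11.15. Spots marked as outliers (931 to 1096 on an array) were dropped, and the remaining spots of each probe were averaged. The filter asked that more than 0.5 of the spots of a probe be well above background in every sample of the females or of the males. The log2 ratio of 21995 probes was fitted with terms for sex and for dye, with Benjamini-Hochberg adjustment over all of them, and a gene was read by its brightest probe (14603 genes). Names came from accessions for 17328 probes, from the files for 5371, and 7668 had none. Levels are those of each sample's own channel after Aquantile scaling between arrays, with the fitted dye effect of the probe taken out where said. The members' ratios, their counts and median, the count of the other clock loop and the list medians were recomputed under 17 other choices, 1 of them, loess within 10 bands of array rows, chosen after seeing the data, and the spread between animals under 2. Genes named are all members, any gene of the other clock loop, output and suprachiasmatic lists, up to 3 of smallest p in other lists, and the 3 most correlated with Dbp and Nr1d1. The fit was tested on simulated data, and precision is limited by having 4 arrays. The array is the block, because each ratio is taken within the array that a female and a male shared, and the 2 animals sharing an array deviated from their sex means with correlations across genes of 0.61, 0.68, 0.46 and -0.08. Labels name separate animals. No column was left unmapped (0).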

Additional observations from a re-analysis of the deposited data

Results flagged for a closer look

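In 2 groups of 4 animals a sample lay far from the other 3, of 32 groups examined (16 probes in 2 sexes), where chance marks about 1 in 20. Nr1d1 in female replicate 1 stood at 10.21 on the dye-adjusted log2 scale, against 10.04 to 10.05 in the other females, a gap of 0.936 of the range. It was still below the lowest male, at 10.31. Female 1 also had the highest median of meningeal markers, at 1.16. Male replicate 1 of the same array was the highest male for Nr1d1, at 10.49, so both animals of array 1 were the highest of their sex. Per3 in male replicate 2 stood at 10.75 at its brightest probe, against 9.97 to 10.06 in the other males, a gap of 0.885 of the range, and this is the animal with the lowest hypothalamic and the highest cortical, hippocampal and striatal marker levels. Female replicate 2 of the same array was the highest female for Per3, at 10.61, with a hypothalamic marker median of -0.04.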

How the results depend on the processing

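No member passed the adjusted threshold under any of 17 alternatives. Leaving out a replicate keeps a single array in its dye orientation, and the dye term fits that array exactly. The error then comes only from the arrays of the other orientation, so such p-values and counts do not measure the spread over all arrays left. Without replicate 4 the single array was array 2, which holds male 2, and the ratios were -0.43 for Tef, -0.32 for Nr1d1 and 0.28 for Cry1. Nr1d1, Cry1, Tef and Clock kept their direction under all 17, but several of these could not move a ratio. Leaving out the dye term, separate channels, the other filters on dim probes and the intensity trend change only errors or the genes tested. Nr1d1 was at -0.3036 under each of them, as reported. The count of members at an unadjusted p under 0.05, 3 as reported, was 1 without the dye term (Cry1), 1 in separate channels with no replicate block (Nr1d1), and 0 when a 1.5-fold difference was asked for as well. It was 2 with median centring, the scanner log ratio and the authors' value table, where the unadjusted p of Cry1 in limma was 0.142, 0.0502 and 0.250. Over all genes the count at that threshold was 1244 as reported, 405 without the dye term and 1086 in separate channels. It was 776 with median centring, 1046 with the scanner log ratio and 1177 in the authors' value table. In the paired comparison above, the array is the block, and the fit of separate channels without it gives the same ratios by construction (median 0.0058), so only errors and p can differ. The median was -0.0867 in the authors' value table.

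Genes near 0 changed sign. With median centring Arntl was at -0.0512, Per2 at -0.0253 and Per3 at -0.0531. In the authors' value table Arntl was at -0.102, Per1 at 0.0666, Per2 at -0.0826 and Per3 at -0.0793. With loess in row bands Arntl was at -0.0142 and Per3 at -0.0032, and with the mean of its probes Dbp was at 0.0094. Leaving out a replicate gave -0.129 to 0.187 for Arntl, -0.274 to 0.0116 for Per1, -0.176 to 0.293 for Per2, -0.0507 to 0.119 for Per3, -0.0982 to 0.0634 for Cry2 and -0.178 to 0.0413 for Dbp. The other clock loop had 0 genes at an unadjusted p under 0.05 as reported, and 3 with the scanner log ratio. It had 1 in separate channels, with no background correction, an offset of 16 or median centring. It also had 1 in the authors' value table, with an intensity trend or with the mean of probes. Over all genes the counts under these choices went from 776 (median centring) to 1202 (offset of 16), against 1244 as reported. The cause was not tested. Dim probes such as those of Clock are limited by their signal over background.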

Other observations

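All 16 hypothalamic markers tested were above 0 in the ratio of female over male, where 56.21% of all genes were, with a median of 0.67. Without array 2, which holds the male that stood apart in its markers, the median was 0.0053, with 9 above 0 and 7 below. With all arrays 2 passed at an unadjusted p under 0.05 in limma, both higher in females, where 5.01% of all genes were: Kiss1, a driver of gonadotropin release, at 0.48 ± 0.09, and Gnrh1 at 0.99 ± 0.20, both above 0 on 4 of 4 arrays. Without array 2 they were at 0.51 and 0.81. Of 10 cortical, hippocampal and striatal markers 2 passed at that threshold, both lower in females, where 3.51% of all genes were, Lhx2 at -1.06 ± 0.29 and Neurod6 at -0.96 ± 0.33. Their ratios on array 2 were -2.01 and -1.95, and without it they were at -0.71 and -0.49. None passed at an adjusted p under 0.05. The median of this list was -0.45, and -0.03 without array 2. Of the other lists, choroid plexus and ependymal markers had a median of -0.04 over 6 genes, pituitary markers 0.19 over 6, pineal markers 0.10 over 3, meningeal markers 0.43 over 7 and red cell markers 0.30 over 2. Without array 2 these medians were -0.25, 0.0053, 0.03, 0.20 and -0.33.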
